A study of Mus musculus with 15 samples.

Results

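Red cell and platelet precursor genes were followed in 15 newborn mouse livers through 31 genes, 20 of the erythroid and 11 of the megakaryocyte and platelet lineage. They were found by gene name among the 34797 gene names of the array, and 27554 genes entered the tests. The array listed 30 of the 31 under the names used here and Sptb under its older name, Spnb1. The brightest probe stood for each gene, and all 31 chosen probes were well above background on all 15 arrays.

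The study compared the liver transcriptome of newborn mutants that lack the miR-379/miR-410 microRNA cluster, a deletion passed on by the mother, with that of wild-type littermates. All pups were C57BL/6J, were born naturally and were taken on postnatal day 1. Wild-type pups (n = 5) had blood glucose of 51, 72, 50, 55 and 65 mg/dl. The knockout (KO) pups labelled normoglycaemic (n = 3) had 44, 56 and 44 mg/dl, and the design text calls their state mild hypoglycaemia. The hypoglycaemic KO pups (n = 7) had 9, 16, 12, 33, 14, 26 and 29 mg/dl, which the design text calls severe. The mutants were sorted by their glucose, so glucose and group cannot be told apart between the mutant groups. The labels do not say which pups share a litter, so a litter effect was not tested. The 3 group comparisons share libraries with each other, and their values are given side by side without being counted as independent. Each library was taken as 1 pup, and p-values measure the spread between these libraries.

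The liver is a main site of blood formation before birth and still holds red cell and platelet precursors in the newborn, while blood formation moves to spleen and bone marrow. Erythroblasts are driven by transcription factors such as Gata1, Tal1 and Klf1, fill with haemoglobin and expel their nucleus. Megakaryocytes share an ancestor with erythroblasts and shed platelets, which carry integrin and glycoprotein receptors for clotting. The arrays measured whole liver, where fewer cells of a type and less RNA per cell cannot be told apart.

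Levels are log2 of the processed spot signal relative to the 75th percentile of each array's signal, so 1 unit is a doubling, and levels of different genes are not compared. The 15 arrays lay on 2 slides, which held 4 and 3 hypoglycaemic KO, 2 and 1 normoglycaemic KO and 2 and 3 wild-type arrays. Between 57.9% and 76.2% of the spots on an array were well above background, and no spot was saturated. Mirg, a host transcript of the deleted cluster, lay between 0.88 and 1.6 in wild-type livers, between -2.8 and -2.68 in normoglycaemic KO livers and between -3.02 and -1.23 in 6 of 7 hypoglycaemic KO livers. The library labelled hypoglycaemic KO replicate 2 stood at 0.66, near wild type, so the main differences and slopes are also given without it. The mean of 8 hepatocyte markers spanned 8.91 to 9.31 over the 3 groups. Pancreatic enzyme genes marked out wild-type replicate 2, normoglycaemic KO replicate 2 and hypoglycaemic KO replicate 3, where their mean was 2.35, 5.45 and 2.39. Next came hypoglycaemic KO replicates 2 and 5, at -0.04 and -0.27, and the remaining libraries lay between -3.66 and -1.55. Fits without the 3 libraries rich in pancreatic transcripts still held hypoglycaemic KO replicates 2 and 5.

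No member passed the test in any comparison (limma, adjusted p under 0.05 over all genes tested). Between hypoglycaemic KO and wild-type livers 0 of 31 passed, against 0.0181% of all genes. There 4 of 31 (12.9%) had an unadjusted p under 0.05, against 18.7% of all genes, 3 higher (9.71% of all genes) and 1 lower (8.99%). No member separated these groups without overlap, against 1.46% of all genes (0.711% higher and 0.748% lower). Between normoglycaemic KO and wild-type livers 0 of 31 passed, against 0.0% of all genes, and 1 of 31 (3.2%) had an unadjusted p under 0.05, which was lower, against 4.8% (3.08% higher and 1.72% lower). Between the mutant groups 0 of 31 passed, against 0.0544%, and 2 of 31 (6.5%) had an unadjusted p under 0.05, both higher, against 19.3% (9.37% higher and 9.97% lower). For the slope on blood glucose within groups 0 of 31 passed, against 0.0% of all genes, and 5 of 31 (16.1%) had an unadjusted p under 0.05, 3 above 0 and 2 below, against 18.1% (8.1% and 9.98%). The members' share at an unadjusted p under 0.05 was thus above that of the whole array in none of the 4 comparisons, which share libraries. It lay near that of the whole array between normoglycaemic KO and wild type and for the slope. A p that misses the threshold does not show that the levels were equal.

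The erythroid medians were smaller than the within-group SD of a library's mean. Of the platelet medians, that between normoglycaemic KO and wild type was larger than this SD, and the others were slightly smaller. The SD is the spread of single libraries, not the error of a difference between groups, and the medians were not tested. The median difference between hypoglycaemic KO and wild-type livers was -0.07 over the erythroid genes and 0.09 over the platelet genes, beside 0.016 over all genes. Between normoglycaemic KO and wild-type livers the medians were -0.01 and -0.14, beside 0.012. Between hypoglycaemic and normoglycaemic KO livers they were -0.11 and 0.09, beside -0.008. For each gene the within-group SD spanned 0.08 to 0.86 in the erythroid set, with a median of 0.31, and 0.13 to 0.31 in the platelet set, with a median of 0.15. The within-group SD of a library's mean was 0.2 over the erythroid genes and 0.1 over the platelet genes. Without the library labelled hypoglycaemic KO replicate 2 the medians between hypoglycaemic KO and wild type were -0.01 and 0.07, and between the mutant groups -0.06 and 0.1. Without the 3 libraries rich in pancreatic transcripts they were -0.02 and 0.03, and -0.08 and 0.04. Between normoglycaemic KO and wild type these 3 libraries changed the medians most, from -0.01 to 0.12 over the erythroid and from -0.14 to -0.05 over the platelet genes, and without normoglycaemic KO replicate 2 alone the medians were 0.11 and -0.06.

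**Figure D1:**
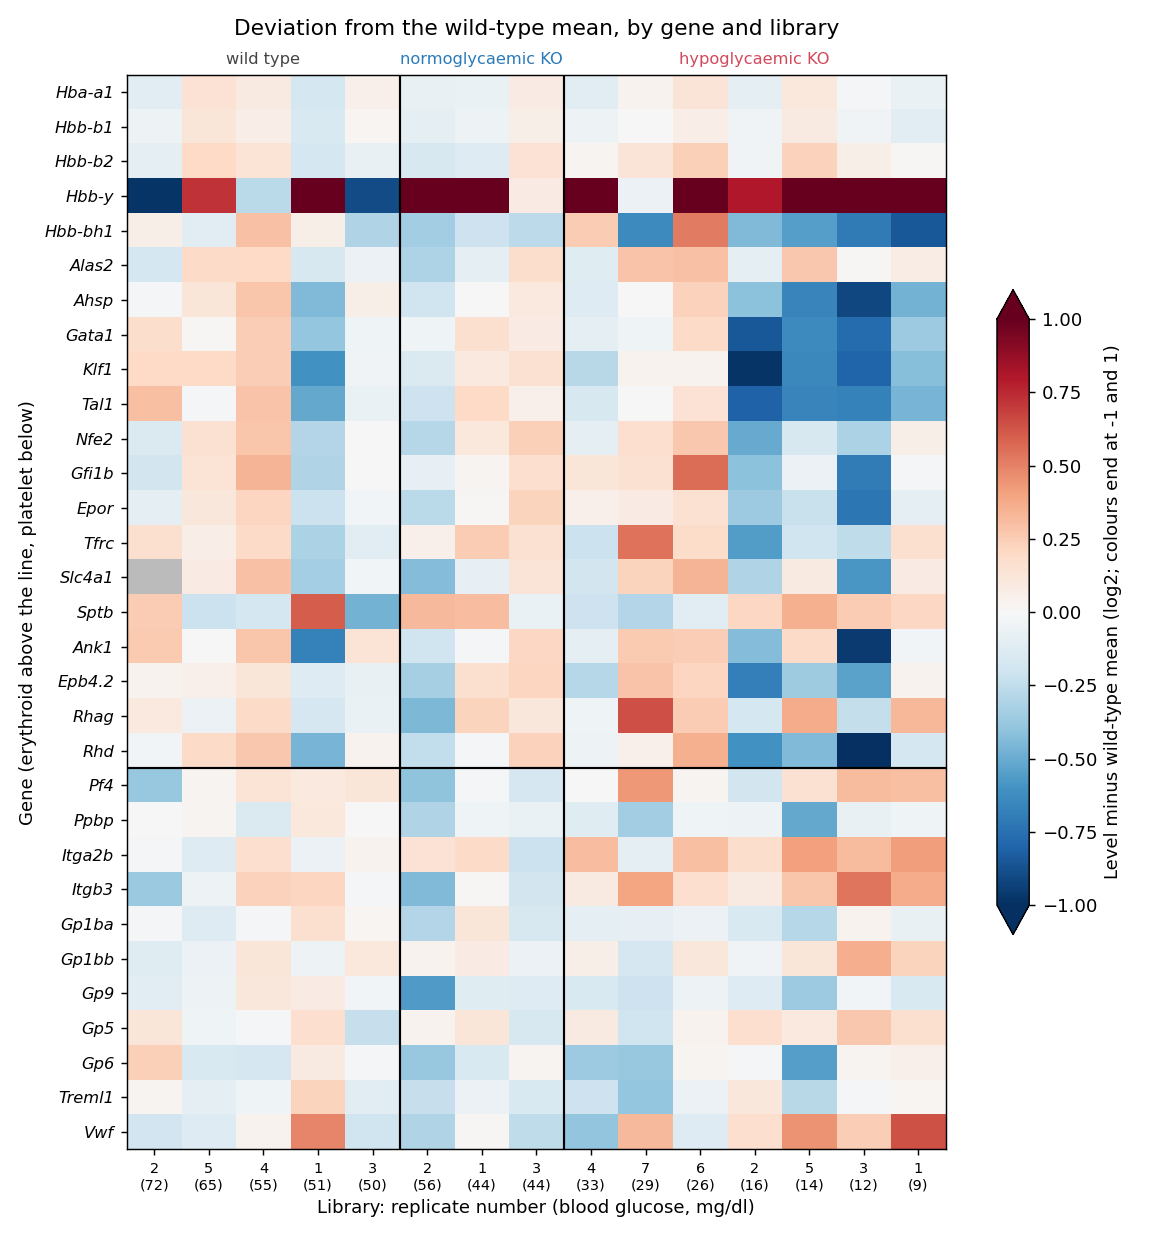
Each cell is a gene's level in a library minus its wild-type mean (log2), with erythroid genes above the line, platelet genes below it, and libraries ordered by group and falling blood glucose; the grey cell is a flagged spot. Gata1, Klf1 and Tal1 are low in wild-type replicate 1 and in the hypoglycaemic KO libraries with 9 to 16 mg/dl glucose, while Hbb-y is above its wild-type mean in all but 1 of the KO libraries.

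The promoters of members whose values the text turns on are shown first, because the transcription factors of the erythroid set are known to bind GATA and CACCC-type motifs. RefSeq sequences (GRCm38.p6) were available for 22 of the 31 members, as windows of 250 bases before to 50 after a gene's start. A GATA motif occurred in 72.7% of the 22 windows, in 84.6% of the 13 erythroid and 55.6% of the 9 platelet windows, and in 29.8% of all 32851 windows. The GATA words searched on both strands were AGATAA and AGATAG, besides TGATAA and also TGATAG. The CACCC-type motif CCNCNCCC, searched on both strands, occurred in 50.0% of the members' windows and 49.5% of all windows. Matches of the words can overlap at their ends, and a match is a description of letters, not a binding site. The 250 bases before the start of 5 members follow, 5′ to 3′ on the gene's strand, with motif matches in capitals.
Gata1 (chrX:7967911-7968160, minus strand): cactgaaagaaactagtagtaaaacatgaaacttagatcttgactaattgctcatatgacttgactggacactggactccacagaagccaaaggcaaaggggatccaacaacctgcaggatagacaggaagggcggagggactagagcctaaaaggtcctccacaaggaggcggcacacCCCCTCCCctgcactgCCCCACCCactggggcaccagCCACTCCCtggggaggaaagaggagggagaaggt
Klf1 (chr8:84901732-84901981, plus strand): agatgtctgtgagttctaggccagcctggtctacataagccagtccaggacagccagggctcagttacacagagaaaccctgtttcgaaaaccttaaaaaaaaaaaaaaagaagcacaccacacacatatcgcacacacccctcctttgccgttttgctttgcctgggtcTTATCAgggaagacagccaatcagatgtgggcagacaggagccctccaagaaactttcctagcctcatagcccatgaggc
Hba-a1 (chr11:32283422-32283671, plus strand): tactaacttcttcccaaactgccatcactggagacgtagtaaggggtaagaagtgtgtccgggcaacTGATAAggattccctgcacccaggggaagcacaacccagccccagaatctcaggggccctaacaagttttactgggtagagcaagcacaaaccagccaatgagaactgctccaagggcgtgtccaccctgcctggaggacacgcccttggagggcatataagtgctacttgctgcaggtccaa
Hbb-y (chr7:103853208-103853457, minus strand): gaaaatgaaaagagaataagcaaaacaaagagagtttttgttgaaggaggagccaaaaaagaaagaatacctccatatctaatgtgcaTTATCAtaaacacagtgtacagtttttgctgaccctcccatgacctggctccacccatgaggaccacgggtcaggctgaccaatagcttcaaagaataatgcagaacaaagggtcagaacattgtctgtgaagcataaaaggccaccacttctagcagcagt
Itga2b (chr11:102469884-102470133, minus strand): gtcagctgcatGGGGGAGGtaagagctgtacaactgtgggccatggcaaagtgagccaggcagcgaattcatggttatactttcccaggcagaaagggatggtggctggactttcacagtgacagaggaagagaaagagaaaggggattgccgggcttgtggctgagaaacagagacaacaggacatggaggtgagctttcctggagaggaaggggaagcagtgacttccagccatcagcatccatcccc
The Gata1 stretch held 3 CACCC-type matches, beginning 71, 55 and 34 bases before the start, and no GATA word. Klf1, Hba-a1 and Hbb-y each held 1 GATA word, beginning 80, 183 and 162 bases before the start. Itga2b held 1 CACCC-type match on the opposite strand, beginning 239 bases before the start.

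The adult globins, the protein chains of haemoglobin, overlapped between the 3 groups. An alpha-globin and a beta-globin probe are shown, because the adult alpha-globin genes are near-identical copies of each other, as are the adult beta-globin genes.
Hba-a1 probe: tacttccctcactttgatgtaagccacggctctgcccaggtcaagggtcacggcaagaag
Hbb-b2 probe: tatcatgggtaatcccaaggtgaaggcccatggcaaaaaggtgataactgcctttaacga
C57BL/6 mice carry adult beta-globin genes that current annotation names Hbb-bs and Hbb-bt, and the names here are those of the array design. Signal from such copies on a probe cannot be assigned to 1 gene with certainty. Hba-a1 stood at 9.5, 9.57, 9.73, 9.77 and 9.82 in wild-type livers, at 9.61, 9.6 and 9.76 in normoglycaemic KO livers and at 9.57 to 9.81 in hypoglycaemic KO livers (median 9.66). The groups overlapped fully, with means of 9.68 ± 0.14 (SD, n = 5), 9.66 ± 0.09 (n = 3) and 9.68 ± 0.1 (n = 7). Hbb-b1 spanned 9.39 to 9.66 (wild type), 9.45 to 9.6 (normoglycaemic KO) and 9.44 to 9.63 (hypoglycaemic KO). Hbb-b2 spanned 7.76 to 8.13, 7.77 to 8.08 and 7.9 to 8.17 in the same order. The limma difference between hypoglycaemic KO and wild type was -0.01 ± 0.06 (SE) for Hbb-b1 and 0.09 ± 0.09 for Hbb-b2, with adjusted p of 0.961 and 0.599. The Hba-a1 and Hbb-b1 probes were the brightest of the members, with a mean log2 processed signal of 19.24 and 19.1. They also had the smallest within-group SDs of the members, 0.11 and 0.08. Whether probes this bright can still show a difference in RNA was not tested.

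Hba-a1 and Hbb-b1 separated by slide. Hba-a1 spanned 9.5 to 9.66 on slide 1 and 9.71 to 9.82 on slide 2, and Hbb-b1 9.39 to 9.51 and 9.54 to 9.66, with no overlap for either gene. These were 2 of the 31 members, against 0.21% of all genes without overlap between slides. Of the 20 erythroid genes 18 had a higher mean on slide 2, with a median difference of 0.27. The same held for 3 of the 11 platelet genes (median -0.07) and for 13217 of all 27554 genes (median -0.01). With slide as a block the erythroid median between hypoglycaemic KO and wild type was -0.02, against -0.07 without it, and within slides 1 and 2 it was -0.14 and 0.01. The 75th percentile signal that levels are relative to spanned 743.9 to 911.8 on slide 1 and 662.6 to 738.1 on slide 2. A signal equal on all arrays would therefore give a higher level on slide 2. The part of this scaling in the slide differences was not tested. What the slides share beyond the array itself is not given in the labels, and its part in the result was not tested.

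**Figure D2:**
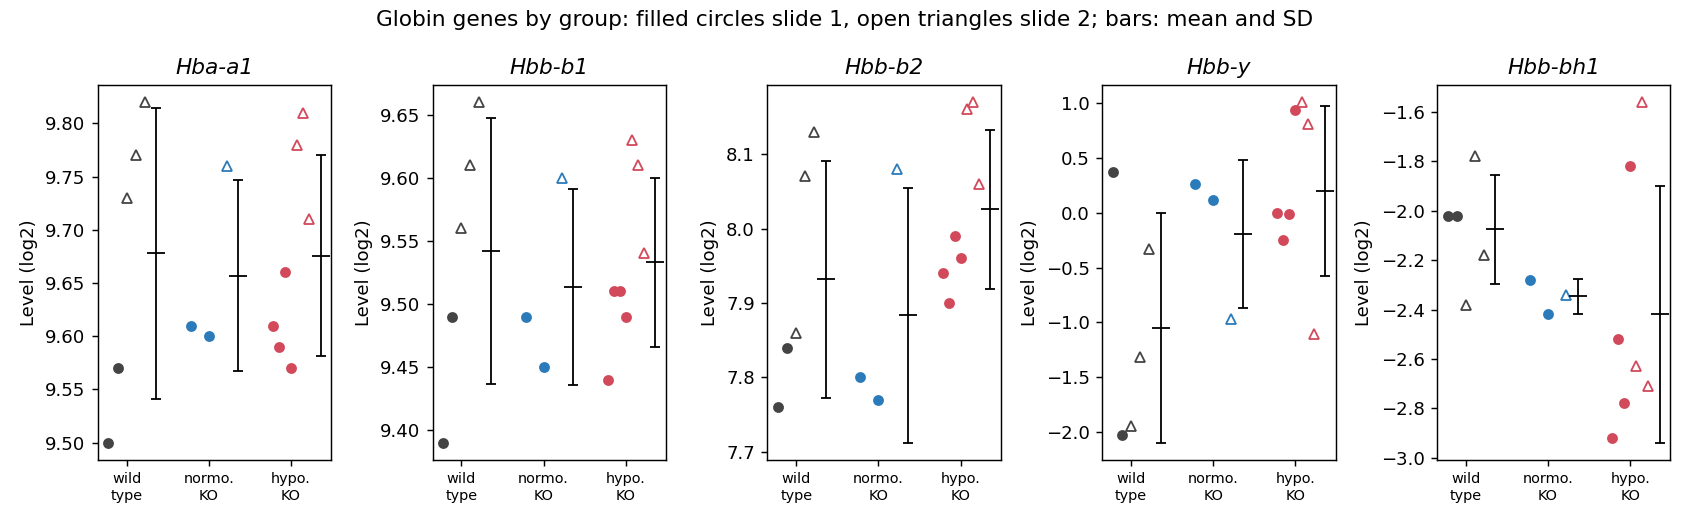
Levels (log2) of 5 globin genes in every library by group, with filled circles for slide 1, open triangles for slide 2, and the group mean and SD beside them. The adult genes Hba-a1, Hbb-b1 and Hbb-b2 overlap between groups while Hba-a1 and Hbb-b1 separate by slide, and the embryonic gene Hbb-y spreads over 3.04 log2 units.

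The embryonic globin Hbb-y, which is made by the first red cells of the embryo and is silenced before birth, had the widest spread of the members. It stood at 0.37, -2.03, -1.95, -1.32 and -0.33 in wild-type livers and at 0.26, 0.12 and -0.97 in normoglycaemic KO livers. In hypoglycaemic KO livers it spanned -1.11 to 1.01, with a median of 0.0. Wild-type replicate 1 was among the high libraries, and replicate 7 of the hypoglycaemic KO was low. Wild-type replicate 5 lay above that low library and above normoglycaemic KO replicate 3, so the groups overlapped. The difference between hypoglycaemic KO and wild type was 1.25 ± 0.47 (limma SE; unadjusted p = 0.0189, adjusted p = 0.178, 0.0647 to 0.76 over the alternatives), and a further Hbb-y probe gave 1.34. It was 0.86 ± 0.59 between normoglycaemic KO and wild type (adjusted p = 0.965), and 0.46 there without the 3 libraries rich in pancreatic transcripts. Without the library labelled hypoglycaemic KO replicate 2 the first difference was 1.33, and without wild-type replicate 1 it was 1.61.

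Hbb-bh1, the other embryonic beta-type globin, stood at -2.38 to -1.78 (wild type), -2.42 to -2.28 (normoglycaemic KO) and -2.92 to -1.56 (hypoglycaemic KO). The ranges overlapped and the difference between hypoglycaemic KO and wild type was -0.35 ± 0.22 (adjusted p = 0.414), so the embryonic beta-type genes had differences of opposite sign. Of the other globin genes, 0 of 5 passed the test in any comparison, and their median difference was 0.38 between hypoglycaemic KO and wild type. Hba-x, the embryonic alpha-type globin, stood at -0.12, -3.33, -3.23, -2.29 and -1.31 in wild-type livers and at -0.35, -0.6 and -1.62 in normoglycaemic KO livers. In hypoglycaemic KO livers Hba-x stood at -0.54, -0.64, -0.63, 0.13, 0.42, -0.04 and -1.82. The 4 libraries with the lowest Hbb-y (wild-type replicates 2, 3 and 4 and hypoglycaemic KO replicate 7) were also the 4 with the lowest Hba-x, and the 4 highest were the same for both genes. The Hba-x difference between hypoglycaemic KO and wild type was 1.61 ± 0.53 (unadjusted p = 0.00939, adjusted p = 0.143). Hba-a2, the second adult alpha-globin, differed by -0.01 (adjusted p = 0.96), and Hbb-bh2 by -0.37 (adjusted p = 0.124).

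Among the genes of haem and globin handling, Alas2, the erythroid enzyme that starts haem synthesis, stood at 5.93 to 6.31 (wild type), 5.8 to 6.28 (normoglycaemic KO) and 5.99 to 6.4 (hypoglycaemic KO). Its difference between hypoglycaemic KO and wild type was 0.1 ± 0.11 (adjusted p = 0.658). Ahsp, a chaperone of free alpha-globin, stood at 6.93, 7.36, 7.43, 7.65 and 7.49 in wild-type and at 7.37, 7.17 and 7.47 in normoglycaemic KO livers. In hypoglycaemic KO livers it spanned 6.46 to 7.6 with a median of 6.96, and 3 of the 7 lay below every wild-type library. The Ahsp difference was -0.34 ± 0.18 (adjusted p = 0.335), and -0.33 without the library labelled hypoglycaemic KO replicate 2. Over the 12 further genes of haem synthesis and mitochondrial iron 0 passed in any comparison, with a median difference of -0.12 between hypoglycaemic KO and wild type. Alad and Uros, enzymes of early haem synthesis, differed by -0.41 and -0.33 (adjusted p = 0.275 and 0.312).

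Gata1, Klf1 and Tal1, factors that direct red cell genes, had lower means in the hypoglycaemic KO than in the other groups, and none passed the test. Gata1 (probe at chrX:7536392-7536451 of mm9, minus strand) stood at 3.59, 4.15, 3.93, 4.22 and 3.99 in wild-type livers and at 4.14, 3.93 and 4.06 in normoglycaemic KO livers. The 7 hypoglycaemic KO livers stood at 3.61, 3.13, 3.21, 3.89, 3.34, 4.17 and 3.93. Replicates 2, 3 and 5 lay below every library of the other groups, replicate 6 near the top of the wild-type range, and the groups overlapped. The Gata1 difference between hypoglycaemic KO and wild type was -0.37 ± 0.18 (adjusted p = 0.293), and between hypoglycaemic and normoglycaemic KO -0.43 ± 0.21 (adjusted p = 0.284). Without the library labelled hypoglycaemic KO replicate 2 these were -0.29 and -0.35, and without the 3 libraries rich in pancreatic transcripts -0.26 and -0.42. Within slides 1 and 2 the Gata1 difference between hypoglycaemic KO and wild type was -0.42 and -0.23.

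Klf1 stood at 1.43, 2.23, 2.0, 2.28 and 2.23 in wild-type livers and at 2.13, 1.89 and 2.19 in normoglycaemic KO livers. Among the hypoglycaemic KO livers Klf1 was 1.61, 1.05, 1.23, 1.76, 1.39, 2.07 and 2.07. Wild-type replicate 1 was low in the same way as the lowest mutants, so the groups overlapped. The Klf1 difference between hypoglycaemic KO and wild type was -0.44 ± 0.2 (unadjusted p = 0.0441, adjusted p = 0.253, 0.0883 to 0.76 over the alternatives). It was -0.35 without the library labelled hypoglycaemic KO replicate 2, and -0.59 without wild-type replicate 1. Tal1 spanned 2.66 to 3.47 (wild type), 2.96 to 3.37 (normoglycaemic KO) and 2.36 to 3.31 (hypoglycaemic KO), with medians of 3.16, 3.22 and 2.7. The Tal1 difference between hypoglycaemic KO and wild type was -0.38 ± 0.19 (adjusted p = 0.302), -0.3 without the library labelled hypoglycaemic KO replicate 2 and -0.25 without the 3 libraries rich in pancreatic transcripts.

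The remaining factors of the erythroid set, Nfe2 and Gfi1b, had smaller differences. Nfe2 spanned 3.81 to 4.38 (wild type), 3.82 to 4.34 (normoglycaemic KO) and 3.6 to 4.37 (hypoglycaemic KO), a difference of -0.08 ± 0.15 between hypoglycaemic KO and wild type (adjusted p = 0.8). Gfi1b spanned 3.01 to 3.65, 3.23 to 3.48 and 2.61 to 3.87, a difference of -0.05 ± 0.18 (adjusted p = 0.911). In hypoglycaemic KO replicate 3 and the library labelled replicate 2, whose Mirg level was near wild type, all 5 factors lay below the lowest wild-type library, in replicate 5 this held for 3 of 5, and in the other 4 hypoglycaemic KO replicates for 0. The mean deviation of the 5 factors from wild type was -0.71, -0.65 and -0.43 in replicates 2, 3 and 5, and -0.42 in wild-type replicate 1. Hypoglycaemic KO replicates 2, 3 and 5 also had the highest pancreatic enzyme means of their group, at -0.04, 2.39 and -0.27. In wild-type replicate 1 that mean was -2.32. Normoglycaemic KO replicate 2 and wild-type replicate 2 had pancreatic means of 5.45 and 2.35, and their factor deviations were -0.15 and 0.07. The part of pancreatic transcripts in the levels of the factors was not tested.

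The 13 proliferation genes, a list of genes of dividing cells, lay low in the same libraries. Their mean deviation from wild type was -0.39, -0.86 and -0.27 in hypoglycaemic KO replicates 2, 3 and 5 and -0.38 in wild-type replicate 1, against -0.19 to 0.34 in the other libraries. Over groups their mean level spanned 2.89 to 3.62 (wild type), 3.41 to 3.46 (normoglycaemic KO) and 2.41 to 3.54 (hypoglycaemic KO). No proliferation gene passed the test between hypoglycaemic KO and wild type (median -0.19, 13 of 13 below 0), and Mki67, Top2a and Ccnb1 differed by -0.01, -0.05 and -0.13. Their part in the values of the erythroid factors was not tested.

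Of 10 other erythroid factors and cofactors 0 passed the test, with a median difference of -0.11 between hypoglycaemic KO and wild type. Zfpm1, a partner of Gata1, differed by -0.37 (adjusted p = 0.277). Lmo2 and Ldb1, which join Tal1 and Gata1 in a complex, differed by -0.23 and 0.33 (adjusted p = 0.433 and 0.178), with opposite signs.

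Both surface receptors overlapped between the groups. Epor, the receptor for erythropoietin, spanned 4.03 to 4.46 (wild type), 3.98 to 4.47 (normoglycaemic KO) and 3.52 to 4.4 (hypoglycaemic KO), a difference of -0.16 ± 0.15 between hypoglycaemic KO and wild type (adjusted p = 0.588). Tfrc, which takes up transferrin iron, spanned 2.7 to 3.21, 3.07 to 3.27 and 2.46 to 3.56, a difference of -0.05 ± 0.16 (adjusted p = 0.907). For both genes the hypoglycaemic KO range was the widest of the 3, in the group with the most libraries. The SDs were 0.17, 0.24 and 0.31 for Epor and 0.21, 0.1 and 0.36 for Tfrc, in the same order of groups. Of 16 genes of iron handling and erythropoietin signalling in liver 0 passed the test, with a median of -0.04. Hamp, the iron hormone hepcidin, differed by 1.3 (adjusted p = 0.217), Hamp2 by -0.01 (adjusted p = 0.983) and Tfr2 by -0.21 (adjusted p = 0.179).

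The red cell membrane genes had differences of both signs. Slc4a1, the anion exchanger band 3, spanned 6.31 to 6.94 over the 4 wild-type libraries with a usable spot, 6.22 to 6.78 in normoglycaemic KO and 6.07 to 6.99 in hypoglycaemic KO livers. Wild-type replicate 2 had a flagged Slc4a1 spot, which the fit left out. Ank1, the ankyrin that ties the membrane to its skeleton, stood at 0.03, 0.97, 0.84, 0.98 and 0.71 in wild-type livers, with replicate 1 far below the rest. In hypoglycaemic KO livers Ank1 spanned -0.25 to 0.97 and in normoglycaemic KO livers 0.51 to 0.91. The Sptb level (spectrin beta) spanned -3.09 to -2.01, -2.68 to -2.29 and -2.91 to -2.26 in wild-type, normoglycaemic KO and hypoglycaemic KO livers. All 3 genes overlapped between groups, and Slc4a1, Ank1 and Sptb differed between hypoglycaemic KO and wild type by -0.05, -0.12 and 0.06 (adjusted p = 0.918, 0.818 and 0.891).

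Epb4.2, protein 4.2 of the membrane skeleton, spanned 1.19 to 1.44 (wild type), 0.99 to 1.54 (normoglycaemic KO) and 0.64 to 1.61 (hypoglycaemic KO). Its difference between hypoglycaemic KO and wild type was -0.18 ± 0.17 (adjusted p = 0.585). The Rh complex genes lay on opposite sides of wild type. Rhag spanned 1.23 to 1.59, 0.95 to 1.62 and 1.16 to 2.04, and Rhd 4.47 to 5.21, 4.69 to 5.17 and 3.93 to 5.29. Their differences between hypoglycaemic KO and wild type were 0.17 ± 0.16 and -0.27 ± 0.21 (adjusted p = 0.608 and 0.515). Over the 6 membrane members the median was -0.08, and differences ran from -0.27 to 0.17. Of 18 other membrane and red cell enzyme genes 0 passed the test (median -0.08), with Epb41 and Dmtn at 0.15 and 0.25. Of 15 late erythroblast genes 0 passed (median 0.03), with Bnip3l, Xpo7 and Tspo2, which act in organelle clearance, nuclear export and late erythroid maturation, at 0.25, -0.12 and 0.03.

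**Figure D3:**
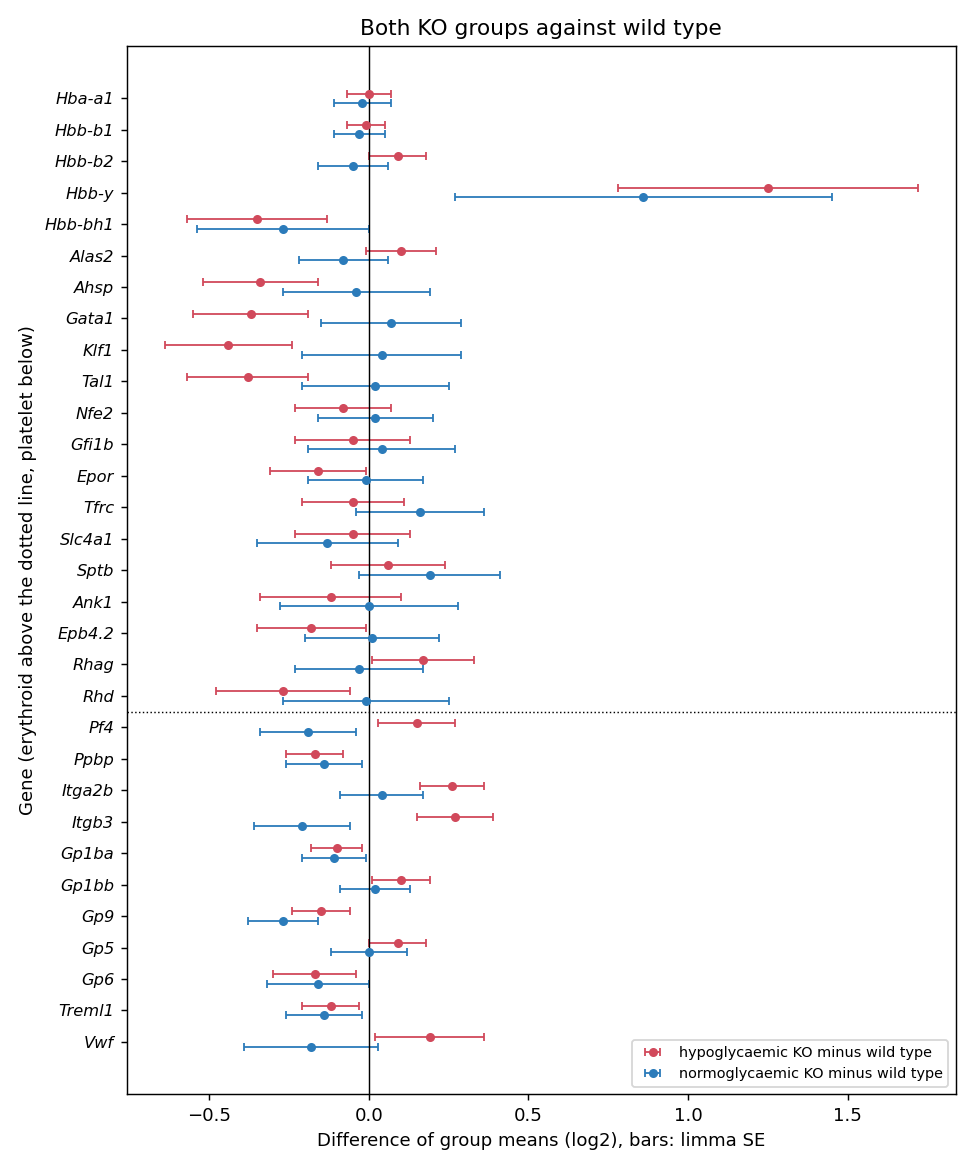
Differences of group means (log2) from wild type for the 31 genes, with limma standard errors, in the hypoglycaemic KO (red) and normoglycaemic KO (blue). Klf1, Tal1 and Gata1 in the hypoglycaemic KO sit at -0.44 to -0.37, Itga2b and Itgb3 at 0.26 and 0.27, and Hbb-y at 1.25, and none passed the test.

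The platelet integrins had higher means in the hypoglycaemic KO. Itgb3, which pairs with Itga2b to bind fibrinogen on platelets, stood at 4.52, 3.93, 4.28, 4.53 and 4.25 in wild-type livers and at 4.31, 3.86 and 4.12 in normoglycaemic KO livers. Among the hypoglycaemic KO livers it was 4.67, 4.39, 4.84, 4.39, 4.58, 4.47 and 4.7. Every hypoglycaemic KO library lay above every normoglycaemic KO library, and the wild-type range overlapped both. Itgb3 was the only member without overlap between the mutant groups, 1 of 31 (3.23%), against 9.03% of all genes (5.07% higher and 3.96% lower). Its difference was 0.48 ± 0.14 between the mutant groups (unadjusted p = 0.00494, adjusted p = 0.119, 0.0694 to 0.571 over the alternatives) and 0.27 ± 0.12 between hypoglycaemic KO and wild type (adjusted p = 0.246). A dimmer Itgb3 probe gave 0.37 and 0.15. Without the library labelled hypoglycaemic KO replicate 2 the Itgb3 differences were 0.51 and 0.31, and without the 3 libraries rich in pancreatic transcripts 0.32 and 0.14.

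Itga2b (CD41), its partner in the pair, stood at 0.99, 1.04, 1.09, 1.22 and 0.92 in wild-type livers and at 1.24, 1.2 and 0.84 in normoglycaemic KO livers. The 7 hypoglycaemic KO livers had Itga2b at 1.47, 1.23, 1.37, 1.36, 1.46, 1.35 and 0.96. Of these, 6 of 7 lay above every wild-type library and replicate 7 lay within their range. The Itga2b difference between hypoglycaemic KO and wild type was 0.26 ± 0.1 (unadjusted p = 0.0214, adjusted p = 0.186, 0.137 to 0.76 over the alternatives), and 0.28 without the library labelled hypoglycaemic KO replicate 2. Between normoglycaemic KO and wild type it was 0.04 ± 0.13.

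The granule chemokines Pf4 and Ppbp, which platelets release, had differences of opposite sign from wild type in the hypoglycaemic KO. Pf4 stood at 6.46, 5.99, 6.49, 6.5 and 6.39 in wild-type livers and at 6.35, 5.96 and 6.2 in normoglycaemic KO livers, and spanned 6.18 to 6.8 in hypoglycaemic KO livers (median 6.52). Its difference between the mutant groups was 0.34 ± 0.15 (unadjusted p = 0.0345, adjusted p = 0.22), 0.4 without the library labelled hypoglycaemic KO replicate 2 and 0.21 without the 3 libraries rich in pancreatic transcripts. Ppbp spanned 3.97 to 4.22 (wild type), 3.81 to 4.07 (normoglycaemic KO) and 3.6 to 4.07 (hypoglycaemic KO), a difference of -0.17 ± 0.09 between hypoglycaemic KO and wild type (adjusted p = 0.351).

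The GPIb-IX-V complex is the platelet receptor for von Willebrand factor. Gp1ba spanned 1.32 to 1.61 (wild type), 1.16 to 1.57 (normoglycaemic KO) and 1.17 to 1.49 (hypoglycaemic KO). Gp1bb spanned -0.23 to 0.01, -0.17 to -0.03 and -0.28 to 0.25, and Gp5 -0.22 to 0.18, -0.15 to 0.13 and -0.19 to 0.28. Between hypoglycaemic KO and wild type these 3 genes differed by -0.1, 0.1 and 0.09 (adjusted p = 0.536, 0.574 and 0.65).

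Gp9, the small subunit of the complex, stood at 3.17, 2.98, 3.06, 3.2 and 3.04 in wild-type livers and at 2.97, 2.52 and 2.96 in normoglycaemic KO livers. The normoglycaemic KO libraries all lay below the wild-type ones, and Gp9 was the only such member, 1 of 31 (3.23%), against 3.89% of all genes without overlap (1.54% lower and 2.35% higher). Its difference was -0.27 ± 0.11 (unadjusted p = 0.0283, adjusted p = 0.965), and -0.12 without normoglycaemic KO replicate 2, a library rich in pancreatic transcripts. In hypoglycaemic KO livers Gp9 spanned 2.73 to 3.06 and overlapped both other groups.

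Gp6, the collagen receptor, spanned -1.1 to -0.69 (wild type), -1.31 to -0.9 (normoglycaemic KO) and -1.48 to -0.88 (hypoglycaemic KO). Treml1, a protein of platelet granules, spanned 3.33 to 3.66, 3.21 to 3.38 and 3.05 to 3.55. Their differences between hypoglycaemic KO and wild type were -0.17 ± 0.13 and -0.12 ± 0.09 (adjusted p = 0.496 and 0.533).

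Vwf, the adhesive ligand of platelets that endothelial cells also make, stood at 3.98, 3.3, 3.29, 3.53 and 3.36 in wild-type livers and at 3.5, 3.19 and 3.24 in normoglycaemic KO livers. Levels in the hypoglycaemic KO were 4.13, 3.66, 3.74, 3.1, 3.94, 3.36 and 3.82, with replicate 4 the lowest of all 15 libraries. Its difference between hypoglycaemic KO and wild type was 0.19 ± 0.17 (adjusted p = 0.584), while a dimmer Vwf probe gave 0.94, so the probes disagreed in size. Of the 10 endothelial markers 0 passed the test, 9 of 10 lay above 0 with a median of 0.13, and their mean level spanned 1.29 to 1.69 in wild-type, 1.5 to 1.59 in mildly affected and 1.56 to 1.85 in hypoglycaemic KO livers. Their part in the Vwf values was not tested. Of 25 other megakaryocyte and platelet genes 0 passed (median 0.05), with Fli1 and Runx1, transcription factors of the lineage, at 0.02 and 0.48. Of 11 stem and progenitor genes 0 passed, and 6 of 11 lay below 0, with a median of -0.09 and a range of -0.5 to 0.38. Kit, Cd34 and Flt3, named as the first on that list, were among the 5 above 0, at 0.33, 0.16 and 0.38.

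Against blood glucose most erythroid slopes lay above 0 and the platelet slopes below 0, and none passed the test. The slope, in log2 per 10 mg/dl within groups, was above 0 for 16 of 20 erythroid genes, with a median of 0.08, and below 0 for 11 of 11 platelet genes, with a median of -0.06, beside -0.017 over all genes. Within slides 1 and 2 the erythroid median was 0.02 and 0.15, and the platelet median -0.09 and -0.0. Across all alternatives 17 of the 31 slopes changed sign at least once. For Gata1, Klf1 and Tal1 the slope was 0.21 each (SE 0.08, 0.09 and 0.09), with adjusted p of 0.214, 0.253 and 0.221. Within the 7 hypoglycaemic KO livers alone their slopes were 0.32, 0.29 and 0.31 (adjusted p = 0.347, 0.387 and 0.326). Without the library labelled replicate 2 these were 0.29, 0.25 and 0.28 (adjusted p = 0.408, 0.429 and 0.395). The 4 hypoglycaemic KO pups at 9 to 16 mg/dl had Gata1 of 3.13 to 3.61, or 3.21 to 3.61 without the library labelled replicate 2, and the 3 at 26 to 33 mg/dl had 3.89 to 4.17. Ahsp had a slope of 0.18 ± 0.09 (adjusted p = 0.307), and the adult globins Hbb-b1 and Hbb-b2 0.01 each.

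Among platelet genes the steepest slope was that of Vwf, -0.22 ± 0.07 (unadjusted p = 0.0101, adjusted p = 0.14, 0.0629 to 0.912 over the alternatives). Itgb3 had -0.15 ± 0.05 (unadjusted p = 0.0153, adjusted p = 0.165), which was -0.22 within slide 1 and -0.01 within slide 2, and -0.06 without the 3 libraries rich in pancreatic transcripts. Pf4 had -0.12, which was -0.18 within slide 1 and 0.02 within slide 2, and -0.02 without those 3 libraries. Without the library labelled hypoglycaemic KO replicate 2 the slopes of Gata1, Klf1, Tal1, Vwf and Itgb3 were 0.19, 0.19, 0.2, -0.23 and -0.16. The proliferation genes had a median slope of 0.22, with an unadjusted p under 0.05 for 11 of 13, against 18.1% of all genes (8.1% above 0), and an adjusted p of at least 0.0739, and the endothelial markers a median of -0.07. Whether these lists take part in the members' slopes was not tested.

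When the slope was fitted over all 15 livers with no term for group, 5 of 31 members passed (16.1%), against 16.8% of all genes. These were Gata1, Klf1 and Tal1, with slopes of 0.12, 0.14 and 0.12 (limma adjusted p = 0.0285, 0.0249 and 0.0321), and Itga2b and Itgb3, with -0.07 and -0.1 (adjusted p = 0.0438 and 0.0205). In that fit glucose and group cannot be told apart.

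**Figure D4:**
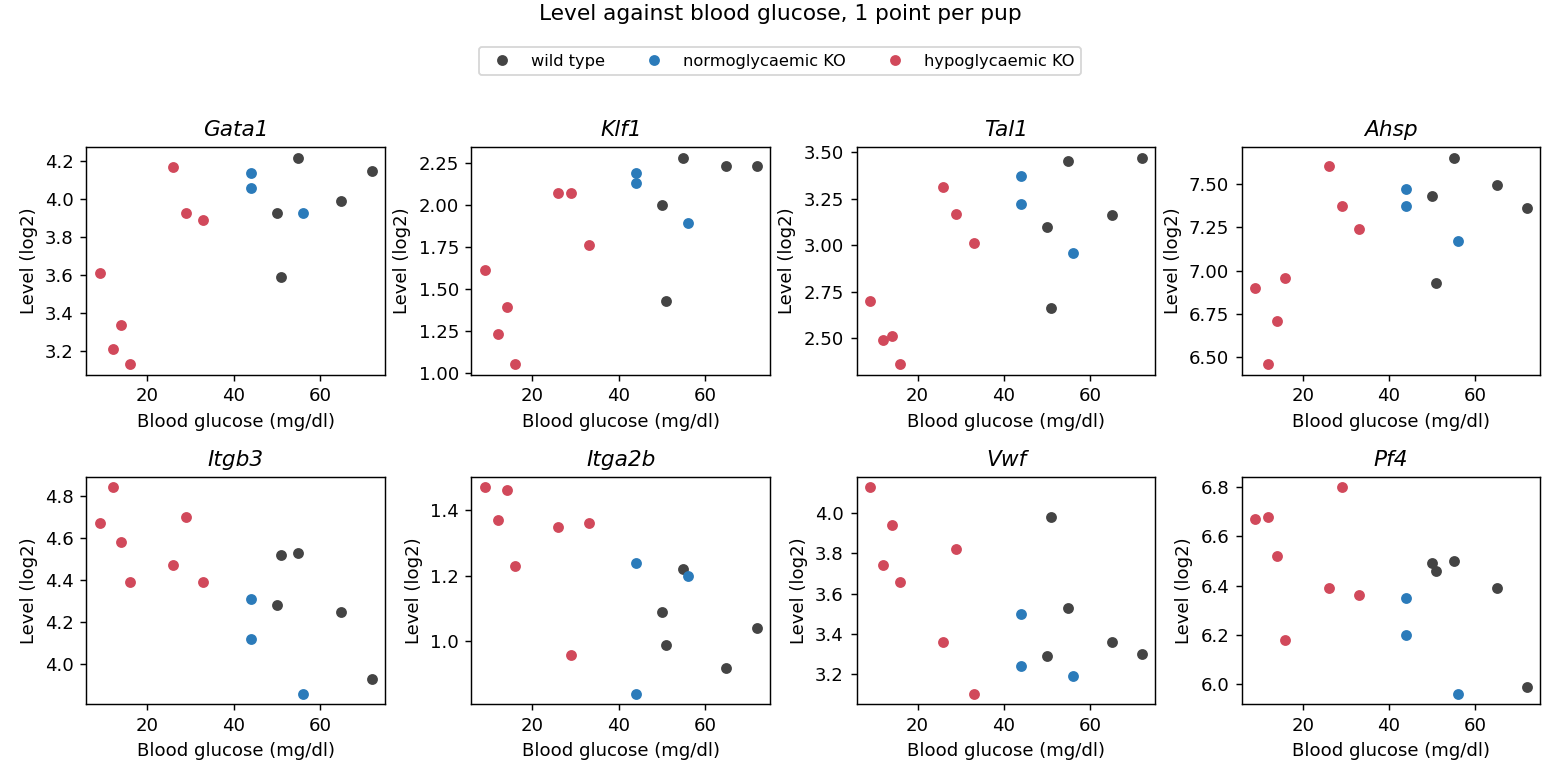
Level (log2) against blood glucose (mg/dl) for 4 erythroid genes (top) and 4 platelet genes (bottom), 1 point per pup, coloured by group. Gata1, Klf1, Tal1 and Ahsp are low in the pups with 9 to 16 mg/dl and in wild-type replicate 1 at 51 mg/dl, and Itgb3 and Vwf are lowest at 56 and 33 mg/dl.

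Marker lists of other cell types were read beside the members, for hypoglycaemic KO against wild type, and no gene of any of these lists passed the test in any comparison. Hepatocyte markers had a median of -0.07, with Alb, Afp and Ttr at -0.06, -0.07 and -0.62. Granulocyte markers had 0.16, with Elane, Mpo and Prtn3 at 0.11, 0.27 and 0.37. Macrophage markers, of a cell type that nurses erythroblasts, had -0.21, with Cd68, Adgre1 and Cd5l at -0.29, -0.49 and -0.37. B cell markers had -0.04, with Cd79a and Cd79b at -0.14 and -0.05. T and NK cell markers had -0.54, with Cd3e, Cd3g and Cd3d at -0.06, -1.29 and -0.54. Endothelial markers Pecam1, Cdh5 and Kdr stood at 0.29, 0.07 and 0.1. Stellate and fibroblast markers had -0.11, with Des, Pdgfrb and Col1a1 at -0.08, -0.14 and -0.12. Pancreas markers had 0.02, with Cela1, Cela2a and Cela3b at 0.47, -0.35 and 0.16. Mast cell and basophil markers had -0.14, with Cpa3, Mcpt8 and Fcer1a at -0.08, -0.16 and -0.12.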

How the data were processed

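RNA of 15 livers, 200 ng each, was labelled with Cy3 and hybridised to 1-colour Agilent arrays, per the labels' protocols. The scanner files deposited by the authors hold spot intensity (Agilent Feature Extraction 10.10, per the submitters' processing notes), and probe positions are on mm9, per the file headers. The authors' deposited log2 values, made with limma per the submitters' processing notes, were used as an alternative, and their background step is not given in the sources used here.

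The intensity (processed signal) was scaled to each array's 75th percentile of non-control spots and put on a log2 scale. Spots flagged as outliers were left out. The brightest probe stood for a gene, and genes whose probe was well above background on at least 3 arrays were kept (27554 of 34797). limma 3.58.1 in R 4.3.3 was fitted over these genes and 15 libraries, with Benjamini-Hochberg adjusted p under 0.05 as the call and 12 residual degrees of freedom. The fit was tested on simulated data with known changes. It called 43.3% of 1.5-fold changes between hypoglycaemic KO and wild type, 20.9% between normoglycaemic KO and wild type and 25.4% between the mutant groups. The number of arrays limits the precision.

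Named were all 31 members and, of each other list, those that passed a test or else its first 3 tested genes, some of which are not reported here. The members and lists were chosen with earlier results of these data known, and aliases were added later. The promoters and probes printed, Hba-x and the libraries singled out were chosen after their values were seen. Alternatives changed background correction, scaling, filter, probe choice, slide, array row, replicate block, the glucose model, the groups fitted and the libraries left out. The slope within the hypoglycaemic KO without its replicate 2 was added after seeing the data.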

Additional observations from a re-analysis of the deposited data

Results flagged for a closer look

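Of 62 groups of 4 to 7 libraries, 2 had a library far from the others, its gap divided by the group's range being above Dixon's critical value (0.71 for 5 libraries), where chance gives about 1 in 20. Ank1 was lowest in wild-type replicate 1, at 0.03 against 0.71 for the nearest wild-type library. Pf4 was lowest in wild-type replicate 2, at 5.99 against 6.39 for the nearest.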

How the results depend on the processing

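No member passed the test under any of the alternatives for the 3 group comparisons, and for the slope on glucose members passed only in the fit without group, where 5 did. The platelet median between hypoglycaemic KO and wild type was 0.09, and -0.03 within slide 2. The erythroid median between the mutant groups was -0.11, and -0.35 with the replicate number as a block. Same-numbered libraries of different groups correlated at -0.18 to 0.32 (median 0.12, over 0.1 in 6 of 11 pairs) and other pairs with a median of -0.02 (over 0.1 in 10 of 60). Same-numbered pairs were thus over 0.1 more often than other pairs, though not all of them were. Whether the numbers stand for a pairing is not settled by this, and the main fit did not use them. With the replicate block 0 of 31 members passed. Leaving out each library in turn, the erythroid median between hypoglycaemic KO and wild type ran from -0.16 to -0.01 and the platelet median from 0.03 to 0.1. Between the mutant groups the leave-one-out medians ran from -0.18 to -0.03 and from 0.06 to 0.15, and between normoglycaemic KO and wild type from -0.09 to 0.11 and from -0.19 to -0.06. Over the whole array 5 genes passed between hypoglycaemic KO and wild type, against 746 without wild-type replicate 1, 549 without hypoglycaemic KO replicate 4, 138 without its replicate 2 and 0 within either slide. Between the mutant groups 15 passed, against 952 without hypoglycaemic KO replicate 4, 301 without wild-type replicate 2 and 0 with slide as a block. For the slope 0 passed, against 985 without hypoglycaemic KO replicate 7, 290 with the authors' values and 4636 without group. Signs of members that did not pass changed in at least 1 alternative for 8, 19 and 17 of 31 genes in the 3 group comparisons and for 17 of 31 slopes. Averaging all probes of a gene put Vwf at 0.56 in place of 0.19. The cause of these shifts was not tested.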
